A study of Rattus norvegicus with 4 samples.

Results

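Endothelial genes were examined in primary cultures of rat oligodendrocyte precursor cells (OPCs), which should hold few or no cells of blood vessels. Vwf, Cdh5, Tek, Tie1, Esam, Pecam1, Cldn5, Eng, Egfl7 and Emcn were taken as the endothelial genes, with the VEGF receptors left out, and a probe was assigned to one of them where its transcript accession is listed under that gene by RefSeq. Of these 10 genes, 9 had a probe, and they were covered by 10 of the 45565 probes that had a value on every array, since Vwf was measured by a pair of probes and no probe could be matched to Egfl7. The arrays gave 4 of the 9 genes a signal well above background in every sample and the other 5 in none. The name of the set therefore describes the genes and not the cells, and no endothelial cell is assumed here.

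OPCs had been isolated from the pooled cerebral cortices of Sprague-Dawley rats at postnatal day 2 and expanded for 3 days with growth factors. All samples were then switched to differentiating medium with thyroid hormone and transfected at 50 nM, with the same reagent, by a siRNA pool against Gpr17 (siGPR17, GPR17-silenced OPCs) or by a non-targeting RNA pool (siNEG, control OPCs). RNA was collected 48 h later from 2 samples of each group, described by the submitters as independent, and each was hybridized to a one-color Agilent array. Neither group was left untransfected, and the arrays measured whole cultures, so that fewer cells of a type and less RNA per cell cannot be told apart.

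Endothelial cells line the vessels, and in the brain they form the barrier between blood and tissue. They are held together by VE-cadherin (Cdh5) in adherens junctions, by claudin-5 (Cldn5) in tight junctions, and by the immunoglobulin-type adhesion molecules Esam and Pecam1 (CD31). Tek (Tie2) and Tie1 are tyrosine kinase receptors of the angiopoietin system, endoglin (Eng) is a co-receptor for ligands of the TGF-β family, and endomucin (Emcn) is a sialomucin of the vessel surface. Von Willebrand factor (Vwf) is a large secreted glycoprotein that binds platelets and carries coagulation factor VIII, and it is also made by megakaryocytes, the precursors of platelets.

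Between 26997 and 28244 probes were well above background on each array, a flag that the scanner software sets for spots brighter than their background by more than its noise. A gene is called detected where a probe passed it. Signals are given in intensity units after scaling each array to its 75th percentile. Gpr17 itself had signals of 1107 and 1113 in control OPCs and of 652 and 639 in GPR17-silenced OPCs, a 1.72-fold lower level with no overlap (limma, adjusted p = 0.209). All 16 genes of a list of the oligodendrocyte lineage were well above background on all 4 arrays. All arrays lay on 1 slide, with the treatments in separate columns of it, so that treatment and column cannot be told apart.

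Of the endothelial genes with a probe, 4 of 9 (Vwf, Cdh5, Tek and Esam) were well above background on all 4 arrays, whereas 66.2% of the 16568 genes with a matched probe were. The remaining 5 (Pecam1, Cldn5, Eng, Tie1 and Emcn) did not clear the background flag on a single array, against 25.6% of all genes. Signals of Tie1 were 3.70 and 3.90 in control and 3.74 and 3.47 in GPR17-silenced OPCs. Those of Emcn were 3.96 and 4.26 in control and 3.99 and 3.80 in GPR17-silenced OPCs. Both lay near the median signal of the 15324 probes that were dim on every array, which was between 3.83 and 4.31. Eng gave 3.75 and 4.08 in control and 4.42 and 3.68 in GPR17-silenced OPCs. Pecam1 gave 3.83 and 4.11 in control OPCs and 3.88 and 5.61 in GPR17-silenced OPCs. Cldn5 gave 3.55 and 3.79 in control OPCs and 7.45 and 3.33 in GPR17-silenced OPCs, so that a single array carried its highest value. The groups overlapped in all 5 genes, and since both sides were dim no fold change was derived. A dim probe sets a limit to what these arrays could detect and does not show that a transcript was missing.

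**Figure D1:**
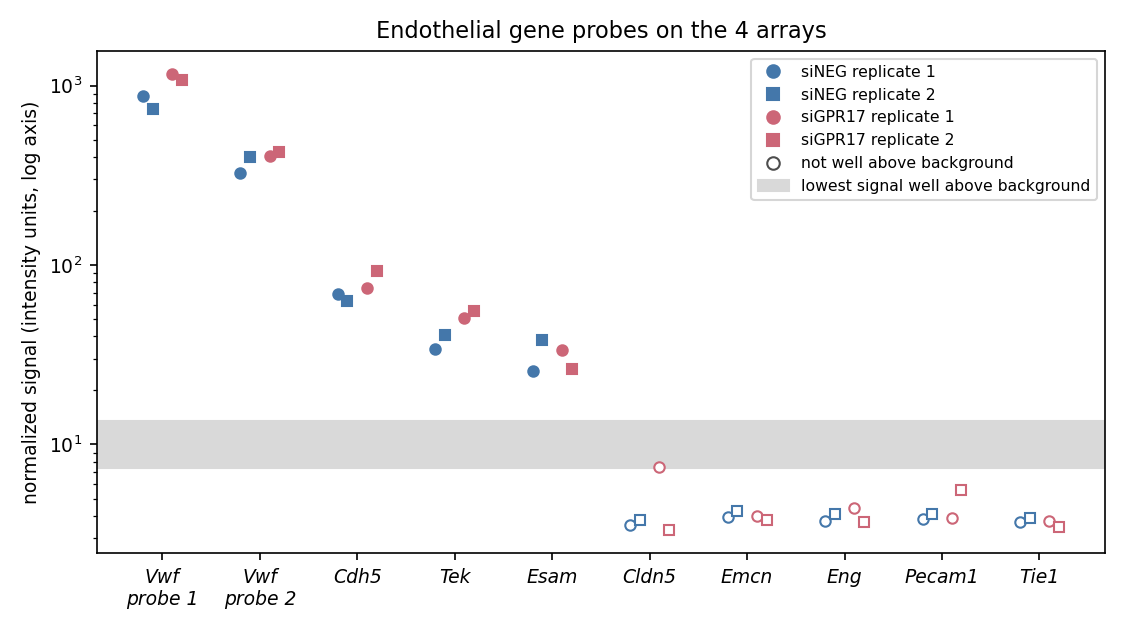
Normalized signal of each endothelial gene probe on the 4 arrays, on a log axis; circles and squares are replicates 1 and 2, blue is siNEG, red is siGPR17, and open symbols mark probes that never passed the background flag. The grey band spans, over the arrays, the dimmest signal passing that flag, from 7.38 to 13.4. Vwf, Cdh5, Tek and Esam lie above the band on every array, and the 5 other genes lie at or under it. Heights of different probes are not comparable as transcript levels.

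Vwf was measured by a pair of probes, and both were well above background in all samples. With A_43_P21694, the signal was 869 and 738 in control OPCs and 1165 and 1071 in GPR17-silenced OPCs. Both silenced samples were above both controls, by 1.39-fold or a log2 difference of 0.48 with a standard error of 0.125 and a 95% interval from 0.14 to 0.82. The unadjusted p of limma was 0.0171, and after Benjamini-Hochberg adjustment over all 28016 probes tested it was 0.235. The second probe, A_64_P114913, gave 327 and 398 in control OPCs and 407 and 425 in GPR17-silenced OPCs. Its groups did not overlap either, but they nearly met, and its log2 difference was 0.20 with an interval from -0.16 to 0.57 (limma, adjusted p = 0.480). With siNEG replicate 1 left out this value was 0.062, and without siNEG replicate 2 it was 0.35. The difference of the second probe was thus smaller than the spread between the control samples, which was 0.29 on the log2 scale, and that of the first was larger than its control spread of 0.24. Scaling on spike-in controls, which moved the median log2 difference of all tested probes from 0.0094 to 0.14, gave 0.34 for the second probe.

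The receptor kinases Tek and Tie1 parted on these arrays, Tek being detected and Tie1 not. Tek had signals of 34.1 and 40.9 in control OPCs and of 51.0 and 55.4 in GPR17-silenced OPCs, without overlap. The silenced samples were 1.42-fold higher, a log2 difference of 0.51 with a standard error of 0.13 and a 95% interval from 0.15 to 0.87 (limma, unadjusted p = 0.0167, adjusted p = 0.235). Its signal is low enough for the treatment of the background to matter, and with normexp correction and an offset of 50 the log2 difference was 0.21. Of the ligands, Angpt1, the agonist of Tek, gave 27.7 and 30.0 in control and 26.3 and 23.4 in GPR17-silenced OPCs, a log2 difference of -0.22 (limma, adjusted p = 0.391). Angpt2, which antagonizes or activates Tek depending on the setting, and Angpt4 were not detected on any array. Of 5 ligands and partners listed, 3 had a probe and 1 was tested, so that receptor and ligand were on record only as Tek and Angpt1, and neither passed the thresholds.

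Of the junction genes, Cdh5 was detected in every sample, with signals of 69.2 and 62.9 in control OPCs and of 74.1 and 92.1 in GPR17-silenced OPCs. Both silenced samples were higher, but one of them only slightly. The log2 difference was 0.33 with a standard error of 0.15 and a 95% interval from -0.073 to 0.72 (limma, adjusted p = 0.353), and it was 0.17 without siGPR17 replicate 2. Esam had signals of 25.6 and 38.0 in control and of 33.8 and 26.5 in GPR17-silenced OPCs. Its groups overlapped fully, and the log2 difference of -0.060 had an interval from -0.73 to 0.62 (limma, adjusted p = 0.918), with a sign that turned under spike-in scaling and when an array was left out. Cldn5 and Pecam1, described above, remained below detection.

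Over the 4 tested endothelial genes, 0 passed the thresholds of the study's methods, at least 1.5-fold with an adjusted p below 0.07, in limma, in the methods' t-test or in any other setting tried. Of all tested genes 0 of 11656 (0%) passed in limma, and of all tested probes 1 (0.00357%). With limma's trend and robust options 1.58% of genes passed and again no endothelial gene, although the adjusted p of the brighter Vwf probe was then 0.0644 at its 1.39-fold difference. An unadjusted p under 0.05 was reached in limma by 2 of the 4, Vwf and Tek, both higher, and by 0 lower, beside 7.43% of all genes higher and 8.73% lower. The t-test of the methods gave 0 of 4, and so did limma without siGPR17 replicate 2, while without siGPR17 replicate 1 it gave 1. Groups that did not overlap, with both silenced samples higher, were seen in 3 of the 4 genes, and in 28.1% of all genes, with a further 25.3% lower. The median log2 difference of the 4 genes was 0.40, beside 0.0099 over all genes. None reached a fold of 1.5, which 2.43% of all genes did upwards and 2.65% downwards. Of the probes with an unadjusted p under 0.05 over the whole array, 45.4% were higher in GPR17-silenced OPCs, a share that was 55.9% with normexp and 80.7% with spike-in scaling.

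**Figure D2:**
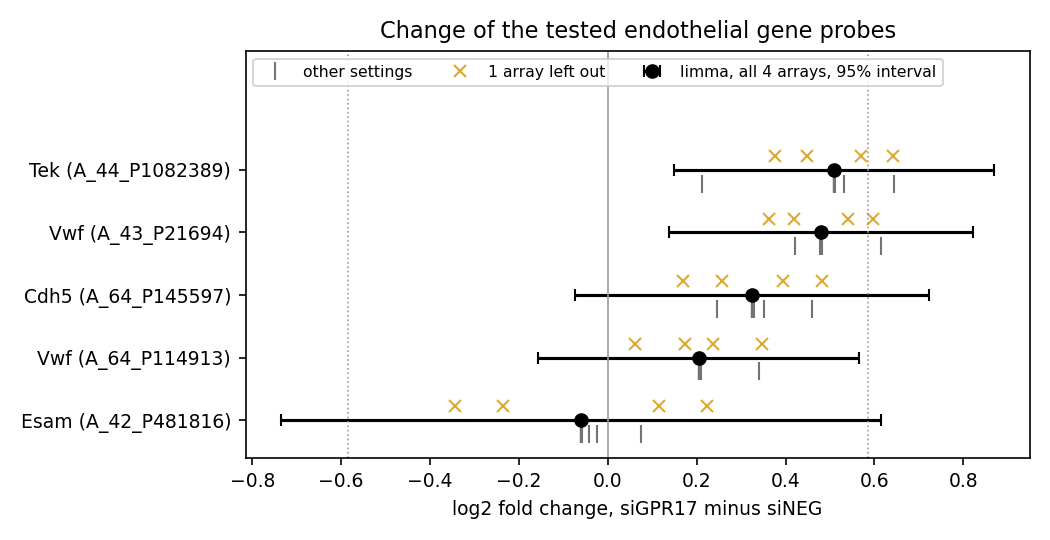
Log2 difference between siGPR17 and siNEG for the 5 probes tested; black points are limma estimates over all 4 arrays with 95% intervals, crosses are fits with 1 array left out, grey ticks are the other settings, and dotted lines mark a fold of 1.5. The intervals of Tek and of the first Vwf probe lie above 0, those of the other probes include 0, and the crosses of Esam fall on both sides of 0.

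Partners of the detected genes were then read from lists. Vwf carries factor VIII, and F8 had signals of 3321 and 3761 in control and 3112 and 3119 in GPR17-silenced OPCs, a log2 difference of -0.18 (limma, adjusted p = 0.439). A dimmer probe of F8 gave 0.0061 with overlapping groups. Selp, the gene of P-selectin, which endothelial cells store in the same granules as von Willebrand factor, was not detected on any array. Neither were the thrombin and protein C receptors Thbd and Procr, nor Plau and Gp1ba. Of 13 genes of haemostasis, 11 had a probe and 5 were tested. Of these, 4 were lower in GPR17-silenced OPCs, each without overlap, beside 25.3% of all genes. The lowest p belonged to Tfpi, an inhibitor of the coagulation start, at 232 and 201 in control and 171 and 163 in GPR17-silenced OPCs (log2 difference -0.37, limma, adjusted p = 0.265). The median of the list was -0.18, and 0 of the 5 passed the thresholds. Gp1bb and Gp9 encode parts of the platelet receptor of von Willebrand factor. Gp1bb was bright, at 30966 and 36016 in control and 29785 and 29307 in GPR17-silenced OPCs (log2 difference -0.18, limma, adjusted p = 0.479). Which transcript its probe read was not tested, and Gp1ba, another part of that receptor, was not detected. Gp9, the gene of the list that was higher, passed the background flag on 3 of 4 arrays, at 31.1 and 18.3 in control and 28.6 and 29.8 in GPR17-silenced OPCs, with overlap.

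Adherens junction partners of VE-cadherin are expressed by most cell types. Ctnnb1 (β-catenin) had signals of 2906 and 3587 in control and 2988 and 2760 in GPR17-silenced OPCs, with overlap. Ctnnd1 (p120-catenin) had 185 and 234 in control and 175 and 154 in GPR17-silenced OPCs, a log2 difference of -0.34 (limma, adjusted p = 0.361). Tjp1 (ZO-1), a scaffold of tight junctions, had 5180 and 5991 in control and 5010 and 4658 in GPR17-silenced OPCs (log2 difference -0.21, limma, adjusted p = 0.435). Jam3, an adhesion molecule related to Esam, had 429 and 370 in control and 439 and 488 in GPR17-silenced OPCs (log2 difference 0.22, limma, adjusted p = 0.438). Jam2, of the same family, went the other way, at 2161 and 2389 in control and 1763 and 1749 in GPR17-silenced OPCs (log2 difference -0.37, limma, unadjusted p = 0.018, adjusted p = 0.237), and F11r was not detected. The one gene of this list with a fold of 1.5 and an unadjusted p under 0.05 was Ocln, the gene of occludin, at 94.0 and 88.5 in control and 149 and 131 in GPR17-silenced OPCs (log2 difference 0.61, limma, adjusted p = 0.209). A dimmer probe of Ocln was not detected. Among 11 genes tested, 4 gave higher and 7 lower means, the median was -0.079, and 0 passed the thresholds.

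Endoglin acts with type I and type II receptors of BMP9 (Gdf2) and TGF-β. Acvrl1 (ALK1), the type I receptor of this pathway in endothelium, gave 9.52 and 11.4 in control and 17.0 and 10.2 in GPR17-silenced OPCs, none of them well above background. Gdf2 and Bmp10, its ligands, were not detected either. The type II receptor Bmpr2, which many cells use, was bright, at 778 and 772 in control and 586 and 575 in GPR17-silenced OPCs (log2 difference -0.42, limma, unadjusted p = 0.00705, adjusted p = 0.211), and its other 2 probes gave -0.48 and -0.33. Of 8 tested genes of the pathway, 6 were lower and 2 higher by their brightest probes, each without overlap, with a median of -0.14. Tgfbr1, counted as lower at -0.13, was higher without overlap with its dimmer probe, at 0.38 (limma, adjusted p = 0.281). Over all tested genes, 25.3% were lower and 28.1% higher without overlap. Of the 2 higher, Smad9 passed the background flag only in GPR17-silenced OPCs, at 34.5 and 19.4 beside 17.9 and 18.2 in control. It was thus tested through the group in which it was higher. None of the 8 passed the thresholds.

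A list of transcription factors of endothelial genes was detected in part, and some of its members, Tcf21 among them, are not particular to endothelium. Members of the ETS family bind the core GGAA and act at most endothelial promoters, partly beside forkhead factors at a composite site. Erg, the ETS factor most restricted to endothelium, had signals of 27.4 and 11.1 in control and of 15.0 and 18.8 in GPR17-silenced OPCs and was well above background on 1 array of each group. Fli1, its close relative, gave 61.4 and 42.02 in control and 26.4 and 42.02 in GPR17-silenced OPCs with its brightest probe, a log2 difference of -0.61 (limma, adjusted p = 0.397), while its 2 other probes were not detected. Of 14 factors with a probe, 6 were well above background on all arrays (Elk3, Ets1, Ets2, Fli1, Lyl1 and Sox18) and 7 on none (Gata2, Hhex, Lmo2, Sox7, Sox17, Tal1 and Tcf21). Sox18, a factor of vessel development, had 31.0 and 20.8 in control and 42.2 and 36.2 in GPR17-silenced OPCs (log2 difference 0.62, limma, adjusted p = 0.303). Over the 7 factors tested the median was -0.054, and 0 passed the thresholds.

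RefSeq promoter windows (assembly GRCr8) were found for 5 of the 10 endothelial genes: Emcn, Eng, Tie1, Cldn5 and Egfl7. The 250 bases before the gene start are shown for Emcn and Cldn5, both undetected here, because they stand at the ends of the range of ETS cores among these windows. Letters are 5′ to 3′ on the gene's own strand, and capitals mark GGAA or, for a core on the opposite strand, TTCC. Emcn lies at chr2:228564289-228564538 on the plus strand and Cldn5 at chr11:95718599-95718848 on the minus strand.
Emcn: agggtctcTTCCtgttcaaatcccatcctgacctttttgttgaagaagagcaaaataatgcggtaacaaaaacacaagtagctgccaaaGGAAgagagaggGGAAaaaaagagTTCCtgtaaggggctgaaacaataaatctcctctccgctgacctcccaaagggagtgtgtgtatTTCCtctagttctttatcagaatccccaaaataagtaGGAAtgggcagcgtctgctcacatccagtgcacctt
Cldn5: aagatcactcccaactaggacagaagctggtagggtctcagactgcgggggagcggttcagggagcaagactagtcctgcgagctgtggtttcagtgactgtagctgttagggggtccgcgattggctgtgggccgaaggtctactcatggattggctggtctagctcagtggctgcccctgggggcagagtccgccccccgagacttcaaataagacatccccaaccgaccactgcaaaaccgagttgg
The Emcn window holds 6 GGAA cores over both strands and the Cldn5 window 0, with 4 in Tie1, 3 in Eng and 3 in Egfl7. The core is short, and 93.2% of 27457 promoter windows of this length hold at least 1, with a median of 3. The composite letters AACAGGAA, which contain the core, were found in either direction in 2.09% of windows and among these 5 genes only in Emcn. A match of letters describes the window and does not show that a factor binds there.

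Among further endothelial surface and signalling genes, 27 had a probe, of which 10 were well above background on all arrays and 14 on none. Those on all arrays were Aplnr, Calcrl, Cd93, Icam1, Nos3, Notch4, Plvap, Ramp2, Rasip1 and Vcam1. The undetected ones include Cd34, Icam2, Clec14a, Gja5, Sele, Lyve1 and Adgrl4. Nos3, the endothelial nitric oxide synthase, was detected at 27.1 and 23.7 in control and 27.8 and 24.2 in GPR17-silenced OPCs, with overlap. Icam1, an adhesion molecule for leukocytes that many activated cells make, was the only gene of this list with a fold of 1.5 and an unadjusted p under 0.05, at 92.2 and 66.5 in control and 48.7 and 43.5 in GPR17-silenced OPCs (log2 difference -0.77, limma, adjusted p = 0.232). Plvap was at 38.9 and 56.9 in control and 37.0 and 23.7 in GPR17-silenced OPCs (log2 difference -0.67, limma, adjusted p = 0.359). Cd93 was at 45.2 and 31.4 in control and 26.6 and 27.5 in GPR17-silenced OPCs (log2 difference -0.48, limma, adjusted p = 0.335). Of 11 tested, 9 gave lower and 2 higher means in GPR17-silenced OPCs, the median being -0.25. Without overlap, 6 were lower and 1 higher, beside 25.3% and 28.1% of all genes. In a list of blood-brain barrier genes, 8 of 12 were well above background on all arrays and 2, Abcb1a and Slco1c1, on none, the median of the 10 tested being 0.065. Mfsd2a, the lipid transporter of that barrier, which other cells also express, gave 5991 and 6950 in control and 6716 and 6662 in GPR17-silenced OPCs. Taking the 7 lists of further endothelial genes as one, 47 of 93 (50.5%, beside 66.2% of all genes) were well above background on all arrays and 36 (38.7%, beside 25.6%) on none. Of the 53 tested, 18 had a higher and 35 a lower mean in GPR17-silenced OPCs, the median being -0.13, and 0 passed the thresholds in limma, with 2 higher and 8 lower at an unadjusted p under 0.05, beside 7.43% and 8.73% of all genes. That median was 0.0020 with spike-in scaling. The receptors of VEGF, the other classical endothelial set, gave 4 of 5 genes on all arrays. Kdr, the main VEGF receptor, was at 202 and 233 in control and 354 and 340 in GPR17-silenced OPCs (log2 difference 0.68, limma, adjusted p = 0.209). The co-receptor Nrp2 was at 57.4 and 75.6 in control and 42.0 and 45.5 in GPR17-silenced OPCs (log2 difference -0.59, limma, adjusted p = 0.247).

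**Figure D3:**
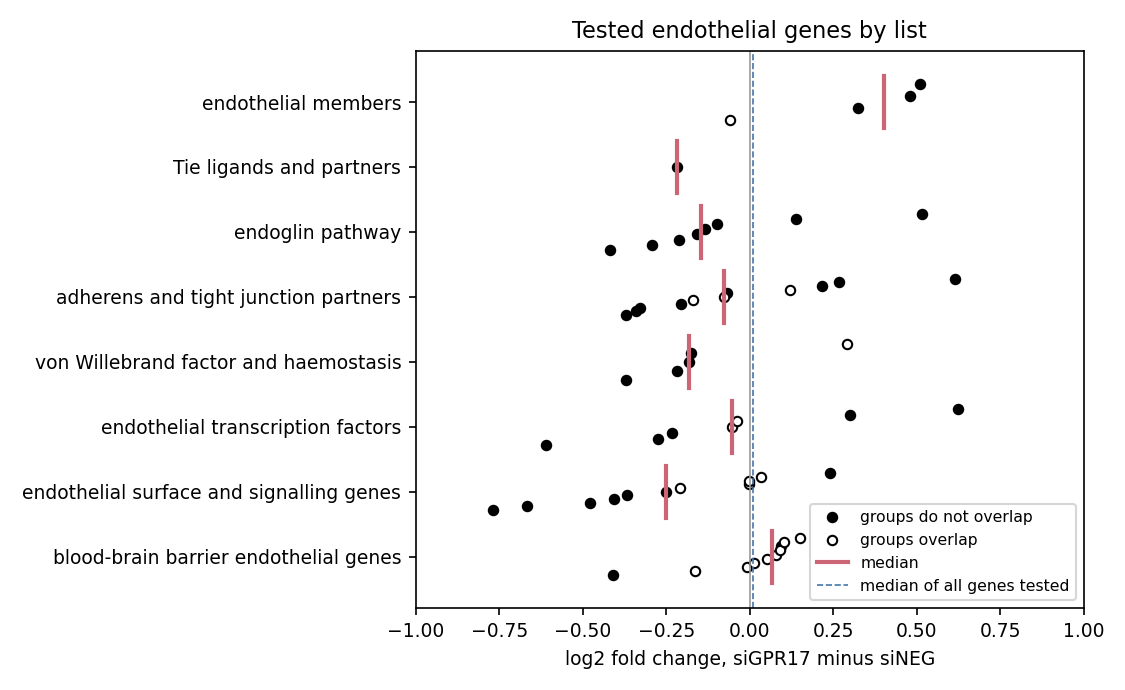
Log2 difference between siGPR17 and siNEG for each tested gene of the endothelial lists (brightest probe), with filled points where the groups do not overlap, red bars at list medians and a dashed line at the median of all genes tested, 0.0099. The 4 genes of the set have a median of 0.40, with Esam overlapping; the list medians below them run from -0.25 to 0.065.

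Markers of other cells that such a culture could hold were read in the same way. Of 15 mural cell genes, 6 were well above background on all arrays and 6 on none, the latter being Pdgfrb, Rgs5, Kcnj8, Abcc9, Higd1b and Vtn, which include the defining markers of pericytes. The summed signal of this list was 1143 to 1233 in control and 1367 to 1421 in GPR17-silenced OPCs. Much of it came from Mcam, at 735 and 713 in control and 911 and 952 in GPR17-silenced OPCs, and without Mcam the sum was 498 and 430.4 in control and 456 and 469 in GPR17-silenced OPCs, with overlap. Among the other genes, Anpep had 100.3 and 81.9 in control and 153 and 131 in GPR17-silenced OPCs, and Tagln had 67.4 and 76.0 in control and 32.5 and 43.4 in GPR17-silenced OPCs. Of 11 fibroblast genes 3 were detected on all arrays, Col1a1, Col1a2 and Mgp, and 5, with Dcn, Lum and Postn among them, on none. Their summed signal was 413 to 594 in control and 569 to 623 in GPR17-silenced OPCs. Of 19 genes of microglia and macrophages 11 were detected on all arrays, Cx3cr1, P2ry12, Aif1, Itgam and C1qb among them. Cx3cr1 was at 2512 and 1241 in control and 1338 and 1884 in GPR17-silenced OPCs. Ptprc, Csf1r, Cd163, Mrc1 and C1qc were detected on none. The sum of the 19 genes overlapped between the groups, at 8430 to 9188 in control and 8921 to 8958 in GPR17-silenced OPCs. Of platelet and red cell genes, Pf4, Hbb and Alas2 were not detected, and Ppbp was on 1 control array. Hba-a1 was the one tested, at 827 and 931 in control and 1115 and 1082 in GPR17-silenced OPCs, and it set the sum of its list at 861 to 949 in control and 1116 to 1145 in GPR17-silenced OPCs. The neuron list had 10 of 11 genes on all arrays, and all 10 tested were lower on average in GPR17-silenced OPCs (median -0.24). Among them Syt1 was at -0.0059 with its brightest probe, and its dimmer probe was higher without overlap, at 0.26. The 10 astrocyte genes were divided evenly (median 0.081), and 13 of the 16 oligodendrocyte lineage genes were lower (median -0.21). Of all 11656 genes tested, 5597 had a lower mean. In each of the 3 lists 0 genes passed the thresholds. Beside Gpr17 itself, Aqp4 and Gfap of astrocytes and Mog of myelin had a fold of 1.5 and an unadjusted p under 0.05, with log2 differences of -1.35, -0.61 and -0.67 for their brightest probes. The second Mog probe gave -0.27 with overlap. In the same lists S100b was higher, with log2 differences of 0.50 and 0.65 for its probes (limma, adjusted p = 0.211 and 0.209), and so was Mbp, at 0.32 and 0.45 (limma, adjusted p = 0.294 and 0.346). The sum of the 9 endothelial genes, most of it from Vwf, was 900.1 to 1017 in control and 1265 to 1348 in GPR17-silenced OPCs. The mural sum with Mcam, and the platelet and red cell sum set by Hba-a1, were higher beside that of the endothelial genes. The median log2 difference was 0.43 over the 5 tested fibroblast genes, 4 of them higher and 1 lower. That median was the value of Col1a1, whose groups overlapped, and only 1 of the 5, Fn1, was without overlap. The median was 0.29 over the 8 tested mural genes, 5 higher and 3 lower, beside 0.40 for the endothelial genes. Of these mural genes, 3 were higher and 1 lower without overlap, beside 28.1% and 25.3% of all genes. Fn1 and the mural genes Des and Ndufa4l2 passed the background flag on 1 control array and on 2 silenced arrays. They were thus tested through the group in which they were higher. The part of mural cells, fibroblasts and red cells in the differences of Vwf, Tek and Cdh5 was not tested.

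**Figure D4:**
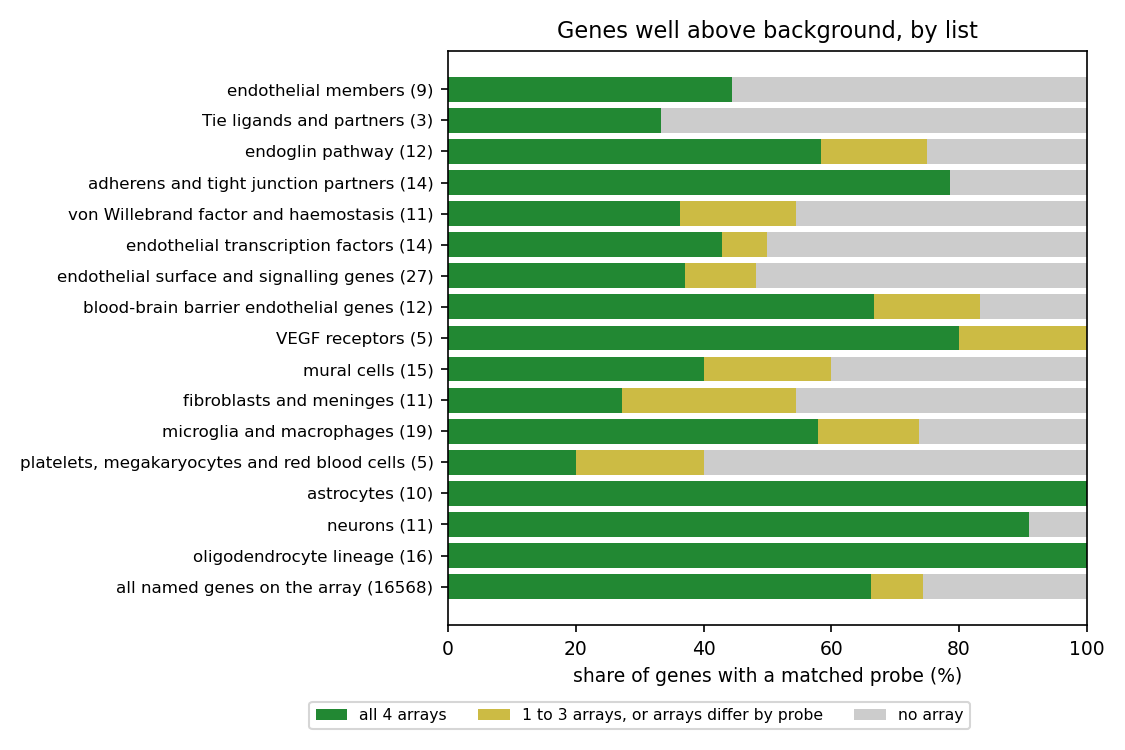
Share of the genes of each list, in percent of those with a matched probe (number in brackets), that had a probe well above background on all 4 arrays (green), on some (yellow) or on none (grey). The 9 endothelial genes fall into 4 and 5, with none between; all genes of the oligodendrocyte lineage and astrocyte lists were detected on all arrays, and over the whole array 66.2% were.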

How the data were processed

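Total RNA (100 ng) of 2 siNEG and 2 siGPR17 OPC samples was labelled with Cy3 and hybridized to Agilent rat gene expression arrays. The deposited intensities had been background-subtracted and detrended within each array by Agilent Feature Extraction 10.7.3.1, per the file headers, and were not normalized between arrays. The same deposited files hold median spot and background intensities, which were used for normexp because no mean spot intensity was used here. The members and lists were chosen with earlier results of these data known.

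Deposited intensities were log2-transformed, flagged outlier and control spots were dropped, spots of a probe were averaged, and each array's 75th percentile was subtracted. Probes passing the background flag on 2 or more of the 4 arrays (28016) were fitted with limma 3.58.1 (R 4.3.3; lmFit and eBayes, two-sided) and adjusted by Benjamini-Hochberg. The thresholds (adjusted p under 0.07 and at least 1.5-fold) are those of the study's methods. These methods name no test for the arrays, so their general unpaired t-test was run as an alternative. The study reports genes past these thresholds, but its list was not used here. Why the counts of these fits differ from it was not tested. With 2 against 2 arrays no exact permutation test can give a two-sided p below 0.333. Transcript accessions without version were matched to RefSeq names (GRCr8, names only), giving 21093 probes a gene. In the fits a gene is represented by its brightest tested probe. The summed signals of the lists instead add the brightest probe of every gene with a probe, tested or not. Bright probes weigh most in such a sum, which is not a sum of transcript levels. Levels of different probes were not otherwise compared.

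The genes named are every endothelial gene of the set, their direct partners, and list genes with an unadjusted p under 0.05 and a fold of 1.5. Other genes named to show what was or was not detected, with Tfpi, Gp1bb, Gp9, Jam2, S100b, Mbp, Mcam, Nos3, Mfsd2a, Sox18 and Hba-a1, were chosen after their values were seen. So were Plvap, Cd93, Tgfbr1, Syt1, Fn1, Des and Ndufa4l2. The code was tested on simulated data. Quantile, detected-probe median and spike-in scaling, normexp, other filters, a floor for dim values, trend and robust options, the replicate block, averaged probes and each array left out were the alternatives. The authors' pathway results were not used here.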

Additional observations from a re-analysis of the deposited data

How the results depend on the processing

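The count of endothelial genes past the thresholds stayed at 0 in all 15 alternatives, and that of genes detected on all arrays stayed at 4 with the weaker flag of the scanner software and with the brightest probe alone. By the weaker flag, however, Eng was positive on 2 arrays and Pecam1 and Cldn5 on 1 each, so that only Tie1 and Emcn were on none, 2 genes in place of 5. The median log2 difference of the tested endothelial genes lay between 0.23 and 0.54, with the sign unchanged, and between 0.31 and 0.45 with an array left out. Vwf, Tek and Cdh5 kept their sign in the 14 alternatives run for single probes. Esam did not: its log2 difference of -0.060 became 0.075 with spike-in scaling and ran from -0.34 to 0.22 with an array left out. The 2 endothelial genes with an unadjusted p under 0.05 became 0 in the methods' t-test and 0 to 2 with an array left out. Of the further endothelial genes, the 2 higher at that p became 4 with the filter on all arrays, normexp, quantile normalization or spike-in scaling and 1 without a filter, with 1 to 3 when an array was left out. The 8 lower became 2 with spike-in scaling and 4 in the methods' t-test, with 1 to 10 when an array was left out. Their median of -0.13 turned to 0.0020 with spike-in scaling. The cause of these moves was not tested. The replicate numbers share the rows of the slide and not a stated batch, and deviations of same-numbered arrays correlated at -0.065 across probes. With the replicate block, 2 endothelial genes again had an unadjusted p under 0.05, and all probes at that p went from 4677 to 3349. Over the whole array, 1 probe passed the thresholds, beside 242 with normexp, 420 with the trend and robust options, 79 with a floor for dim values and 0 in the methods' t-test, with the block, with spike-in scaling, under either other filter or with any array left out. Precision is limited by the number of arrays, and for the 5 undetected genes no fold could be given.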
